A study of Mus musculus with 6 samples.

Results

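Secretory granule cargo and processing enzymes were followed in the mouse pituitary through 10 genes, namely CHGA, CHGB, SCG2, SCG3, SCG5, PCSK1N, CPE, PAM, VGF and PTPRN. They were chosen by name from the 16736 rows of the gene count table, and each of the 10 was found on a single row and passed the filter on low counts. The samples were whole pituitaries of male mice, 3 libraries labelled HFD and 3 labelled RD, all taken after 16 h of fasting and 4 h of renewed feeding. The labels do not spell out HFD and RD, although the series title speaks of obesity, and they give no strain, age, genotype, diet composition or duration. Nothing says that libraries of a group came from separate animals, so p-values measure only the spread between these libraries, which may be technical.

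Endocrine cells of the pituitary store their hormones in dense-core secretory granules and release them on demand. Granins such as chromogranins and secretogranins are acidic proteins that condense with the hormones in the trans-Golgi network and help granules form. Inside the maturing granule, prohormone convertases cut the precursors, carboxypeptidase E (CPE) trims the basic residues left at the cut, and peptidylglycine alpha-amidating monooxygenase (PAM) adds the C-terminal amide that many peptides need for activity. SCG5 (7B2) and PCSK1N (proSAAS) are binding partners of the convertases PC2 and PC1/3, and PTPRN (IA-2) is a protein of the granule membrane.

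Several granin genes are known to carry a cyclic AMP response element (CRE) close to their start site, and the promoter stretches around such letters are shown here so that the start sites of these genes can be compared. RefSeq windows on GRCm38.p6, from 250 bases before to 50 bases after a start site, were matched for 8 of the 10 genes, and VGF and CPE had no entry. The full element TGACGTCA, a palindrome that reads the same on both strands, was found in 2 of the 8 (CHGB and SCG2), and stood in 1.79% of all 32851 promoter windows of the same length. Its core, TGACG on either strand, was found in 6 of the 8, against 20.8% of all windows. The full element holds the core on both strands. Both counts are of genes, and the 8 genes had 10 windows, whereas both percentages are of windows. For each of the 6 genes, 30 bases are printed around the core nearest upstream of the RefSeq start site, 5′ to 3′ on the strand of the gene, with the full element or the core in capitals.
CHGB: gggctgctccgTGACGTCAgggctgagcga
SCG2: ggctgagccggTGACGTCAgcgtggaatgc
CHGA: gggggcggtcctaTGACGtaatttcctggg
SCG3: agcgctgggtcgcTGACGccatcctcacgc
SCG5: taaaggaggtaaaTGACGttcataggggtc
PTPRN: ggggtggagatgtCGTCAttgcacgcctgc
The stretches lie at chr2:132781559-132781588 on the plus strand for CHGB, chr1:79440076-79440105 on the minus strand for SCG2, chr12:102554884-102554913 on the plus strand for CHGA, chr9:75684070-75684099 on the minus strand for SCG3, chr2:113829250-113829279 on the minus strand for SCG5 and chr1:75264272-75264301 on the minus strand for PTPRN. The first capital stands at -72 in CHGB, -68 in SCG2, -44 in CHGA, -30 in SCG3, -175 in SCG5 and -80 in PTPRN, counted from the RefSeq start. The start of the CHGA gene in GENCODE M21 lies 28 bases further downstream, and counted from it the CHGA site stands at -72. For CHGB, SCG2 and PTPRN the GENCODE gene begins upstream of these stretches, so the sites lie inside the span annotated there. A match of letters is a description of the sequence, and no binding was measured.

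Totals over the listed rows were 14185372 to 14384933 counts in HFD and 15702214 to 18111345 counts in RD. Levels are in CPM, counts scaled by the library total and its TMM factor, changes are log2(HFD/RD) with their standard error (SE) from edgeR's quasi-likelihood test over 13873 genes, and a gene is called at a Benjamini-Hochberg adjusted p under 0.05. The 7 hormone subunit genes held 5.93% to 6.68% of counts in HFD and 8.47% to 9.30% in RD. GH1, the growth hormone gene, was called lower (-0.83 ± 0.07), as were PRL (-0.41 ± 0.08), FSHB (-0.39 ± 0.07) and LHB (-0.36 ± 0.10). TSHB (1.04 ± 0.17) and CGA (0.37 ± 0.07) were called higher, and POMC was not called. The 10 granule genes together held 1.06% to 1.13% of counts in HFD and 0.997% to 1.03% in RD. For each hormone count there were 0.168 to 0.179 granule gene counts in HFD libraries and 0.108 to 0.118 in RD libraries, so the groups did not overlap. With the hormone counts taken out of the total, the granule genes held 1.12% to 1.21% in HFD and 1.09% to 1.13% in RD, and the groups overlapped. In bulk tissue, fewer cells of a type and less RNA per cell cannot be told apart.

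VGF and PAM were called lower in HFD and none of the 10 was called higher by edgeR, DESeq2 or limma-voom. At an unadjusted p under 0.05 in edgeR 2 were higher and 3 lower. All tested genes were not counted at that threshold, so these numbers have no background here. For calls at the adjusted threshold the background was 10.5% of tested genes in either direction and 4.61% lower. A count of 2 in 10 genes is too small to set them apart from it. Among the 326 tested genes with a mean of at least 324 CPM, the level of SCG3, 46 were called lower and 23 higher, 21.2% in all. Of the 9 granule genes at or above that level, PAM was the 1 called. The other 8 genes had log2 changes between -0.14 (CPE) and 0.20 (PCSK1N), and the median over the 10 was 0.09, against 0.00 over all tested genes. Libraries of HFD and RD did not overlap in 6 of the 10 genes, with SCG2, SCG3 and PCSK1N on the higher side and VGF, PAM and CPE on the lower. Among all tested genes 32.5% did not overlap, 16.9% on the higher side and 15.6% on the lower.

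**Figure D1:**
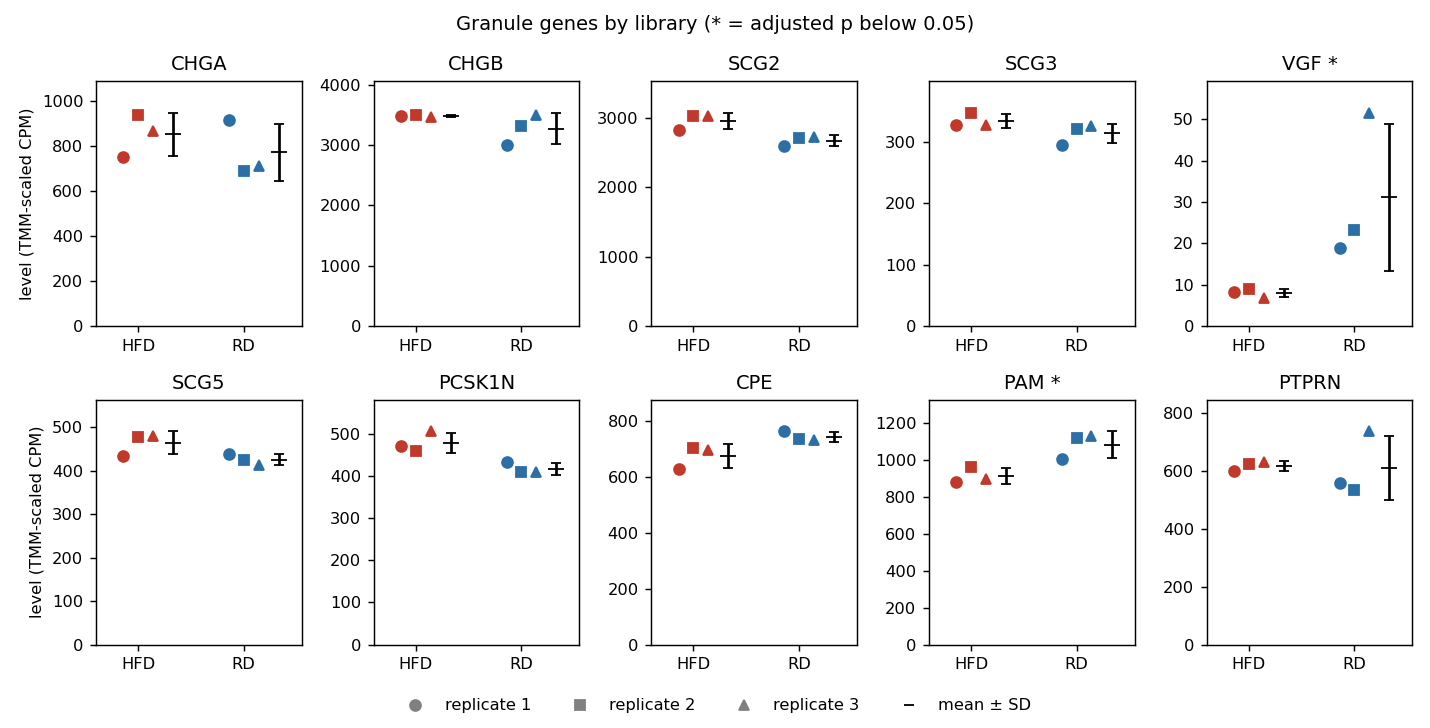
Level of each of the 10 granule genes in TMM-scaled CPM (vertical axes from 0, a scale for each gene) in the 3 HFD and 3 RD libraries, with a marker shape for each replicate number and the mean ± SD beside them. VGF stands at 6.89 to 8.90 CPM in HFD and 18.8 to 51.5 CPM in RD, while most of the other genes differ by a small part of their level.

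CHGB, the chromogranin B gene (chromosome 2 of mm10, 132781278 to 132795079), had the highest level per exon length of the set. It stood at 3491, 3500 and 3463 CPM in HFD replicates 1, 2 and 3, against 2994, 3321 and 3506 CPM in RD replicates 1, 2 and 3. The HFD libraries lay within a coefficient of variation of 0.542%, the RD libraries within 7.92%, and RD replicate 3 reached above all HFD libraries. On the log2 scale HFD differed by 0.09 ± 0.06 (adjusted p = 0.38 by edgeR), with a 95% interval from -0.04 to 0.22.

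SCG2, the secretogranin II gene and precursor of secretoneurin (chromosome 1, 79434669 to 79440120), stood at 2824, 3026 and 3025 CPM in HFD against 2592, 2709 and 2729 CPM in RD. Every HFD library was above every RD library. The log2 change of 0.14 ± 0.05 was not called (adjusted p = 0.10), with a 95% interval from 0.03 to 0.26. With library size as the only scaling, SCG2 was called higher (adjusted p = 0.0226, over a range of 0.0226 to 0.30 in the alternatives tried).

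SCG3, the secretogranin III gene, whose protein binds chromogranin A and granule membrane cholesterol (chromosome 9, 75643189 to 75684056), stood at 327.2, 347 and 327.1 CPM in HFD against 295, 321 and 325 CPM in RD. The lowest HFD library was only just above the highest RD library. A log2 change of 0.09 ± 0.06 was not called (adjusted p = 0.40 by edgeR). Among the other granule genes, the nearest profile to CHGB was that of SCG3, with a root mean square difference of 0.0367 in centred log2 CPM over the 6 libraries, and the nearest to SCG2 was again SCG3 (0.0454). The median difference to 10736 other genes was 0.158 for CHGB and 0.162 for SCG2. Genes outside the set lay nearer than SCG3, such as CBWD1 for CHGB (0.0215) and LAIR1 for SCG2 (0.0193). The nearness of these granin genes was therefore not particular to them. In the ratio of SCG2 to SCG3 counts, HFD libraries had 8.63, 8.72 and 9.25 and RD libraries 8.77, 8.45 and 8.40.

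CHGA, the chromogranin A gene (chromosome 12, 102554969 to 102565028), varied more between libraries of a group than between the groups. It stood at 749, 936 and 866 CPM in HFD replicates 1, 2 and 3, and at 914, 686 and 710 CPM in RD replicates 1, 2 and 3. HFD replicate 1 was low in its group and RD replicate 1 high in its own. The log2 change was 0.14 ± 0.11 (adjusted p = 0.47 by edgeR), with a 95% interval from -0.11 to 0.40.

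POMC, PCSK2 and PAX7, genes expressed by melanotrophs, the POMC-producing cells of the intermediate lobe, were highest in the same libraries as CHGA; they were picked after their values were seen. POMC, the corticotropin and melanotropin precursor gene, stood at 5792, 13677 and 11155 CPM in HFD and 9447, 5526 and 5537 CPM in RD. PCSK2, which encodes the convertase PC2, stood at 187, 445 and 380 CPM in HFD and 348, 228 and 215 CPM in RD. PAX7, the transcription factor of melanotroph identity, stood at 39.3, 98.0 and 93.2 CPM in HFD and 103, 55.0 and 60.6 CPM in RD. In CHGA, POMC, PCSK2 and PAX7 alike, HFD replicates 2 and 3 and RD replicate 1 were the highest libraries. The other genes of the corticotroph and melanotroph list did not follow this pattern. TBX19, a transcription factor gene of POMC cells, stood at 79.2, 81.2 and 76.3 CPM in HFD and 94.5, 73.9 and 81.1 CPM in RD. CRHR1, the corticotropin-releasing hormone receptor gene, stood at 44.2, 41.7 and 48.3 CPM in HFD and 33.7, 35.2 and 35.9 CPM in RD and was called higher (0.36 ± 0.09). The pituicyte marker SCN7A, a gene of glia of the posterior lobe, was lowest in HFD replicate 1 (45.7 CPM) and highest in RD replicate 1 (146 CPM). RAX, NKX2-1 and COL25A1 of that list had their lowest and highest levels in the same libraries. GFAP did not, with 2.21 CPM in RD replicate 2 as its lowest and 11.4 CPM in HFD replicate 3 as its highest. The summed list of 5 stood at 94.8 to 209 CPM in HFD and 166 to 272 CPM in RD, and 0 were called by edgeR.

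With log2 CPM of PAX7 as a covariate, a fit chosen after the data were seen, the SE of the CHGA change was 0.07 in place of 0.11. PAX7 shared its 3 highest libraries with CHGA, so a smaller SE follows from its choice. The change itself was 0.14, as without the covariate, and was not called (adjusted p = 0.22 by edgeR, over a range of 0.0854 to 0.81 in the alternatives). In that fit VGF was called lower (-1.93 ± 0.35) and PAM missed the threshold (-0.25 ± 0.07, adjusted p = 0.0519). CHGB, SCG2, SCG3, SCG5, PCSK1N and PTPRN had changes between 0.02 and 0.20, and CPE had -0.14, none of them called.

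**Figure D2:**
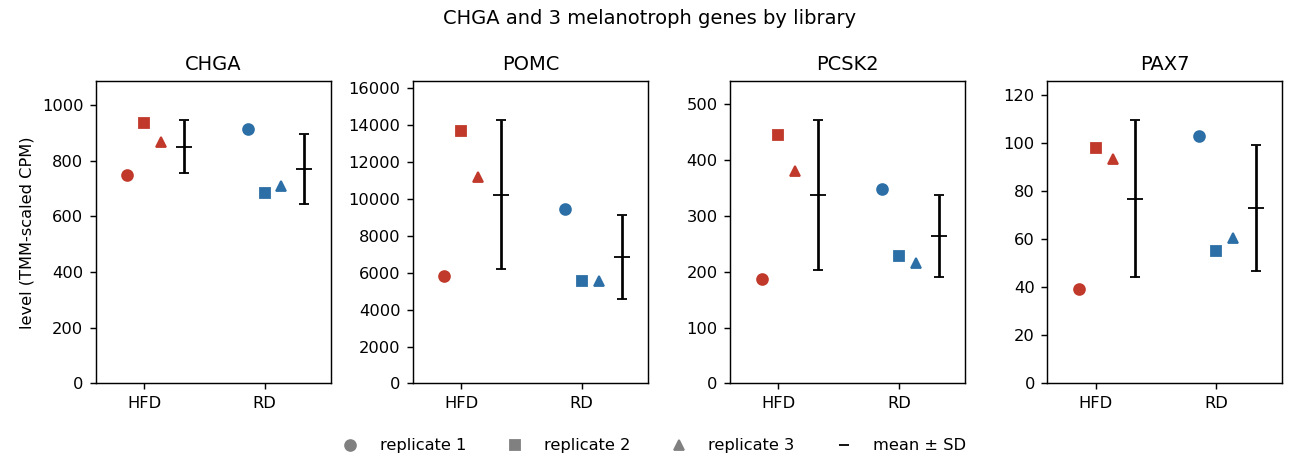
Levels of CHGA and of the melanotroph genes POMC, PCSK2 and PAX7 in TMM-scaled CPM (vertical axes from 0) in HFD and RD libraries, with a marker shape for each replicate number and the mean ± SD. HFD replicates 2 and 3 and RD replicate 1 are the highest libraries in all 4 panels, and CHGA spans 686 to 936 CPM.

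VGF, which encodes a precursor of neuroendocrine peptides and is known in neurons as a gene induced by neurotrophins and activity (chromosome 5, 137026392 to 137033351), showed the change of the set that stood out in size. It stood at 8.12, 8.90 and 6.89 CPM in HFD against 18.8, 23.2 and 51.5 CPM in RD, from 117, 131 and 102 counts in HFD and 307, 357 and 892 counts in RD. All HFD libraries lay below all RD libraries, and RD replicate 3 stood far above the other RD libraries. The log2 change was -1.97 ± 0.34 (adjusted p = 0.0080 by edgeR), a level 0.255 times that of RD. Of the 6 neuron markers, SLC17A6, NEFM and NEFL were also highest in RD replicate 3, at 31.0, 15.1 and 8.15 CPM, against 12.2 to 16.5, 6.32 to 9.30 and 4.86 to 5.95 CPM in the other 5 libraries. RBFOX3, AVP and OXT were not, the summed list stood at 42.9 to 60.4 CPM in HFD and 45.2 to 75.5 CPM in RD, and 0 of the 6 were called by edgeR. The part of these markers in the VGF values was not tested. Without RD replicate 3 the VGF change was -1.40 ± 0.16, and without HFD replicate 3 the call was lost (-1.88 ± 0.42, adjusted p = 0.0549, over a range of 0.00060 to 0.0549 in the alternatives).

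By the rule for likeness, the genes with the profile nearest to that of VGF were BACH2, a transcriptional repressor gene, AMMECR1, and CREB3L1, a transcription factor gene of the ER membrane. Their root mean square differences from VGF in centred log2 CPM over the 6 libraries were 0.225, 0.255 and 0.274, where the median over 10736 genes was 1.01. None of the other granule genes was near, since the closest, PAM, differed by 0.887. The log2 changes of these genes, which follow from their choice, were -1.67 for BACH2, -1.49 for AMMECR1 and -1.48 for CREB3L1.

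SCG5, which encodes the PC2 chaperone and inhibitor 7B2 (chromosome 2, 113776362 to 113829121), stood at 434, 479 and 480 CPM in HFD against 438, 424 and 413 CPM in RD. HFD replicate 1 lay within the RD range. The log2 change was 0.13 ± 0.06 (adjusted p = 0.23 by edgeR), with a 95% interval from -0.01 to 0.27. The ratio of SCG5 to PCSK2 counts was 2.32, 1.08 and 1.26 in HFD and 1.26, 1.86 and 1.92 in RD. It was high in HFD replicate 1 and low in RD replicate 1, the libraries at the ends of the PAX7 range, and the groups overlapped (exact permutation test, two-sided, p = 0.90).

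PCSK1N, which encodes proSAAS, an inhibitor of PC1/3 (chromosome X, 7919822 to 7924410), had the largest positive change of the set. It stood at 472, 460 and 506 CPM in HFD against 435, 409.5 and 409.6 CPM in RD, with no overlap. The log2 change of 0.20 ± 0.06 missed the threshold (adjusted p = 0.068 by edgeR) and had a 95% interval from 0.06 to 0.34. It was called higher with upper-quartile factors (adjusted p = 0.0492) and with library size only (0.0286), over a range of 0.0286 to 0.25 in the alternatives. The gene shares 135 exon bases with Eras on the other strand, and reads there cannot be told apart if strand was not used in counting.

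PCSK1, which encodes the convertase PC1/3 that proSAAS inhibits, stood at 256, 260 and 242 CPM in HFD against 253, 314 and 390 CPM in RD. RD replicate 3 was the highest library, and the log2 change of -0.34 ± 0.13 was not called (adjusted p = 0.13 by edgeR). Without RD replicate 1 it was called lower (-0.49, adjusted p = 0.013, over a range of 0.013 to 0.33 in the alternatives), and without RD replicate 3 the change was -0.17. The ratio of PCSK1N to PCSK1 counts was 1.85, 1.77 and 2.09 in HFD and 1.72, 1.31 and 1.05 in RD, a ratio 1.43 times as high in HFD with no overlap. The exact permutation test gave p = 0.10, two-sided, the smallest that 3 against 3 libraries allow, and 0.50 after adjustment over the 5 gene pairs. A ratio within a library does not depend on the scaling between libraries.

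**Figure D3:**
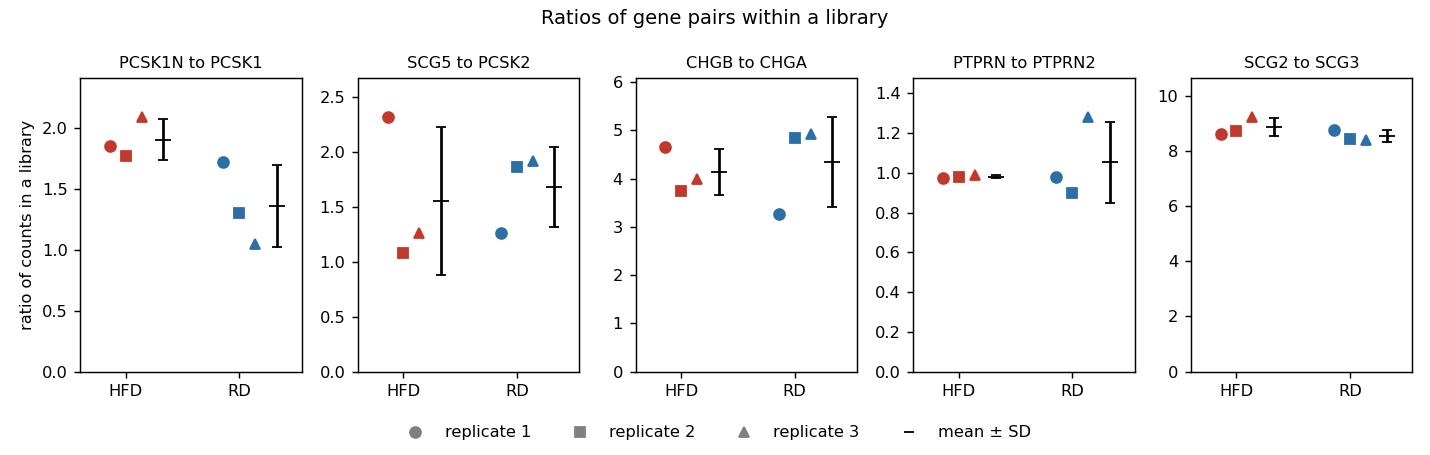
Ratios of counts of 5 gene pairs within each library (vertical axes from 0) for HFD and RD, with a marker shape for each replicate number and the mean ± SD. The ratio of PCSK1N to PCSK1 lies between 1.77 and 2.09 in HFD and between 1.05 and 1.72 in RD, and the groups overlap in the other 4 pairs.

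PAM, the amidating enzyme gene (chromosome 1, 97795114 to 98095646), stood at 881, 963 and 898 CPM in HFD against 1003, 1118 and 1131 CPM in RD. All HFD libraries lay below all RD libraries. The log2 change was -0.25 ± 0.06 (adjusted p = 0.040 by edgeR), a level 0.843 times that of RD, with a 95% interval from -0.39 to -0.10. The call was close to the threshold. Leaving out a library ended it in 5 of 6 cases, all but RD replicate 1, and it was lost with upper-quartile factors (adjusted p = 0.0566), library size only (0.0861) and a replicate block (0.0606), over a range of 0.0172 to 0.154 in the alternatives.

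The genes with the profile nearest to that of PAM were PCNP, which encodes a nuclear protein, DLD, the dihydrolipoamide dehydrogenase gene of mitochondria, and SEC22B, a SNARE gene of transport between the ER and Golgi. Their root mean square differences from PAM lay between 0.0294 and 0.0298, where the median over 10736 genes was 0.180. PAM shares 188 exon bases with the noncoding transcript B230216N24Rik on the same strand.

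CPE, the carboxypeptidase E gene (chromosome 8, 64592542 to 64693054), stood at 628, 704 and 698 CPM in HFD against 764, 736 and 734 CPM in RD. The groups did not overlap, and HFD replicate 1 was the lowest library. The log2 change of -0.14 ± 0.06 was not called (adjusted p = 0.18 by edgeR), with a 95% interval from -0.27 to -0.0016.

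PTPRN, the gene of the granule membrane protein IA-2 (chromosome 1, 75247027 to 75264502), stood at 599, 624 and 632 CPM in HFD against 557, 535 and 736 CPM in RD. RD replicate 3 was the highest of all libraries and the other RD libraries were the lowest. The log2 change was 0.02 ± 0.11 (adjusted p = 0.93 by edgeR), with a 95% interval from -0.22 to 0.26. Without RD replicate 3 it was 0.17 ± 0.05 and was not called (adjusted p = 0.0653, over a range of 0.0653 to 0.99 in the alternatives).

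PTPRN2, the paralogue of PTPRN that encodes phogrin, stood at 614, 638.6 and 638.7 CPM in HFD against 567, 598 and 574 CPM in RD, and its log2 change of 0.12 ± 0.05 was not called (adjusted p = 0.19 by edgeR). The ratio of PTPRN to PTPRN2 counts was 0.976, 0.976 and 0.989 in HFD and 0.981, 0.896 and 1.28 in RD. RD replicate 3 alone held the high ratio. PTPRN shares 189 exon bases with the antisense gene Gm28294.

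**Figure D4:**
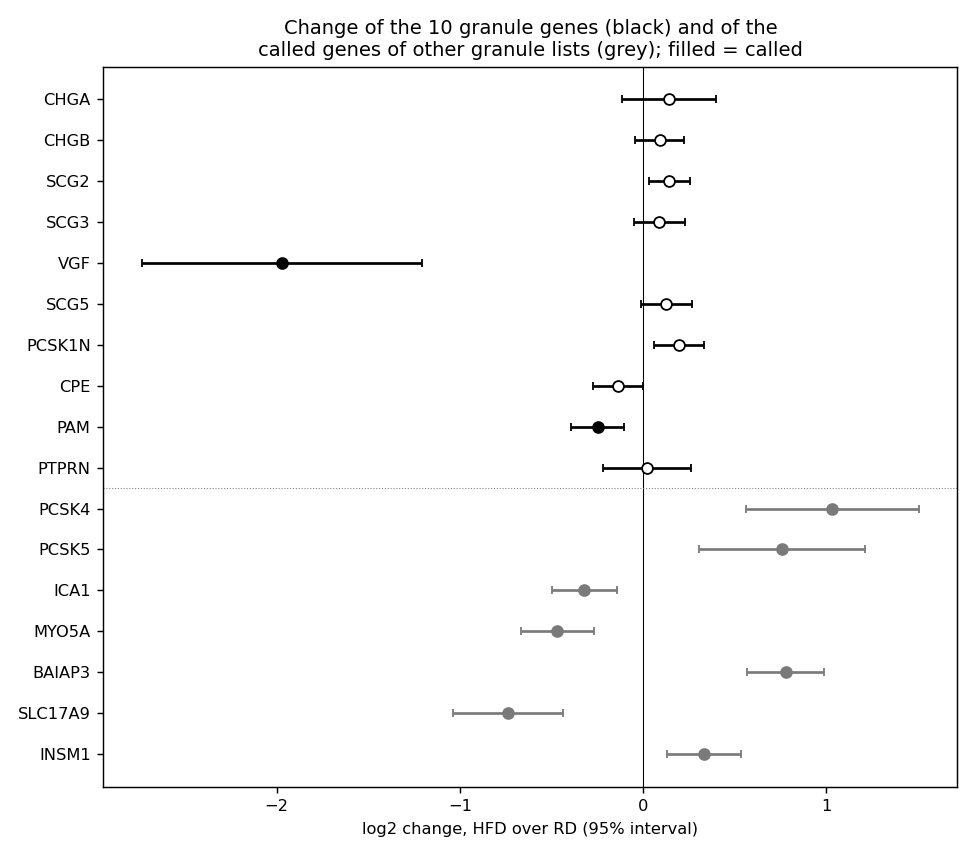
Log2 change, HFD over RD, with its 95% interval for the 10 granule genes (black) and for the called genes of the other granule lists (grey), with filled points for called genes. Among the 10, VGF (-1.97) and PAM (-0.25) are called, and the other 8 lie between -0.14 and 0.20.

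Levels can be set beside each other only per length, taken here as CPM per kilobase of merged exons in GENCODE M21. In HFD libraries the order was CHGB (1272 ± 6.89), SCG2 (1176 ± 46.2), CHGA (309 ± 34.3), SCG5 (296 ± 16.6), CPE (259 ± 16.2), PCSK1N (219 ± 10.9), PTPRN (145 ± 4.05), SCG3 (122 ± 4.15), PAM (76.9 ± 3.65) and VGF (2.68 ± 0.34), each as mean ± SD with n = 3. CHGA was not separated from SCG5 or CPE by more than their SDs added together. In RD libraries CPE (285 ± 6.41) stood above CHGA (279 ± 45.5) and SCG5 (271 ± 8.02), none of them separated by more than their SDs added together, and the order of the other genes was as in HFD. PTPRN (143 ± 25.9) and SCG3 (115 ± 5.80) were not separated by that measure in RD. VGF stood at 10.5 ± 5.98 in RD. The merged exons of PAM span 11.9 kb over all its annotated transcripts, against 1.57 to 4.25 kb for the other genes, which lowers its value on this scale.

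Outside the 10 genes, 5 lists of granule genes held 58 genes, of which 57 were tested. Of these, 4 were called higher, 3 lower and 50 not called, a share close to the background of 5.87% higher and 4.61% lower, with a median log2 change of 0.00. Of the 8 convertase genes, 2 were called higher by edgeR, 4 by DESeq2 and 3 by limma-voom. Over all 13873 tested genes, 814 were called higher by edgeR, 939 by DESeq2 and 816 by limma-voom. PCSK4, a convertase known from germ cells, stood at 14.8, 17.3 and 21.6 CPM in HFD against 9.67, 10.5 and 6.18 CPM in RD (1.03 ± 0.21, adjusted p = 0.016 by edgeR), and its call was lost without HFD replicate 2 or 3. PCSK5 stood at 6.94, 8.56 and 5.88 CPM in HFD against 3.98, 4.62 and 4.045 CPM in RD (0.76 ± 0.20, adjusted p = 0.043 by edgeR), and its call was lost whichever of the 6 libraries was left out, with a replicate block (adjusted p = 0.0761), by limma-voom (0.0513) and with PAX7 as a covariate (0.0542), over a range up to 0.17. FURIN, the convertase of the trans-Golgi network, was not called (-0.07 ± 0.07).

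Of 18 genes of granule formation and transport, 1 was called higher and 2 lower. BAIAP3, a relative of the MUNC13 priming proteins that acts in dense-core vesicle traffic, stood at 317, 321 and 325 CPM in HFD against 218, 179 and 165 CPM in RD. Its log2 change of 0.78 ± 0.09 was called whichever library was left out. MYO5A, the myosin motor that moves granules along actin, stood at 370, 366 and 362 CPM in HFD against 488, 583 and 447 CPM in RD (-0.47 ± 0.09), a call lost without HFD replicate 2 or 3. ICA1, a membrane-bending partner of PICK1 in granule formation, stood at 92.6, 99.3 and 91.5 CPM in HFD against 108, 119 and 127 CPM in RD (-0.32 ± 0.08, adjusted p = 0.032 by edgeR). Its call held in 2 of 6 cases when a library was removed (RD replicate 1 or 3) and was lost with a replicate block (adjusted p = 0.0719) and with library size only (0.0542), over a range of 0.0086 to 0.134 in the alternatives.

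Of 11 tested genes of granule acidification and uptake, 1 was called lower by edgeR and by limma-voom, and 2 by DESeq2. Over all tested genes, 639 were called lower by edgeR, 590 by limma-voom and 840 by DESeq2. SLC17A9, the vesicular nucleotide transporter gene, stood at 12.9, 13.99 and 14.7 CPM in HFD against 21.169, 27.1 and 21.208 CPM in RD (-0.74 ± 0.13), a call kept with any library left out. The vesicular monoamine transporter gene SLC18A2 was not called (-0.34 ± 0.16). Of 10 regulators of granule genes, INSM1, a zinc finger factor of neuroendocrine cells, was called higher, at 86.9, 73.1 and 76.1 CPM in HFD against 66.8, 59.2 and 61.4 CPM in RD (0.33 ± 0.09, adjusted p = 0.044 by edgeR). When 1 of the 6 libraries was removed, that call held only without RD replicate 1, and it was lost with a replicate block and with PAX7 as a covariate. REST, the repressor of neuronal and neuroendocrine genes, stood at 11.7, 11.95 and 11.6 CPM in HFD against 10.2, 8.92 and 13.2 CPM in RD and was not called. Of 10 genes of peptide trimming and amidation other than CPE and PAM, 0 were called by edgeR, DESeq2 or limma-voom. At an unadjusted p under 0.05 in edgeR 1 was lower, again without a count over all genes.

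Summed marker levels of several cell types also differed between HFD and RD. Summed over the list, somatotroph markers stood at 36977 to 40026 CPM in HFD and 59555 to 72352 CPM in RD, with 2 of 3 called lower. Nearly all of that sum was GH1, at a mean of 38005 CPM in HFD and 67336 CPM in RD. POU1F1 (-0.84 ± 0.10) was the other gene called, and GHRHR (-0.34 ± 0.17) was not called. PRL, the only lactotroph marker listed, stood at 9525 to 12137 CPM in HFD and 13653 to 15147 CPM in RD and was called lower. Gonadotroph markers stood at 1023 to 1108 CPM in HFD and 1345 to 1513 CPM in RD, with 3 of 4 called lower and 1 higher. Thyrotroph markers stood at 529 to 570 CPM in HFD and 295 to 377 CPM in RD, with 3 of 4 called higher. Fibroblast markers stood at 305 to 391 CPM in HFD and 445 to 484 CPM in RD, with 1 of 5 called lower. That gene, COL1A2 (-0.69 ± 0.10), made up most of the difference, while COL1A1 (0.16 ± 0.11), PDGFRA (0.25 ± 0.11), DCN (-0.28 ± 0.17) and LUM (-0.02 ± 0.20) were not called. Endothelial and immune markers overlapped, with 0 of 5 called in each by edgeR. Oligodendrocyte markers stood at 71.9 to 198 CPM in HFD and 59.9 to 73.2 CPM in RD, and 2 of 4 tested were called higher. Stem and folliculostellate markers stood at 121 to 137 CPM in HFD and 105 to 115 CPM in RD, with 1 of 4 called higher. That gene, ALDH1A2 (0.43 ± 0.09), made up most of the difference. SOX2 (-0.03 ± 0.11), SOX9 (-0.04 ± 0.15) and S100B (0.63 ± 0.56) were not called. The part of these markers in the values of the granule genes was not tested, apart from PAX7 above.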

How the data were processed

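Whole-number read counts per gene were deposited by the authors for 6 libraries without normalization. Per the labels' protocols RNA was extracted with a column kit and selected with oligo-dT, and per the submitters' processing notes the build was mm10. No aligner, counter, annotation or strand setting is named: not given in the sources used here. Rows carry upper-case symbols. Library totals cover the listed rows only, so depth limits precision as far as these rows go. Small counts were mostly even (64.0% to 67.0% of counts from 1 to 10, against 48.9% to 50.4% above 200), so no counting intervals are printed and every error is a spread between libraries.

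The main test was the two-sided quasi-likelihood test of edgeR 4.0.16 (R 4.3.3) with diet as the only term, TMM factors and filterByExpr (at least 10 counts, at least 15 in total), with Benjamini-Hochberg adjustment over 13873 genes. The SE was derived from the log2 change and the F statistic. Symbols on 2 rows (43) were tested row by row. Replicates of a group differed by 4.22 to 19.1 in chi-square per degree of freedom and were kept apart. Alternatives were DESeq2 1.42.0, limma-voom (limma 3.58.1), other scalings and filters, halved counts, a replicate block, a stricter threshold, each library left out, and PAX7 as a covariate, added after the data were seen. The fit was tested on simulated data, where most large changes were called and small ones were not. An uncalled gene is therefore not shown to be unchanged.

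The 10 genes and the lists were chosen with earlier results of these data known. Named genes are the 10, the called genes of the other lists, the genes of the 5 pairs, and for each called member the 3 genes of nearest profile (mean log2 CPM 3 or more). Other genes named, among them POMC and PAX7 with the marker genes, FURIN, SLC18A2 and REST, were chosen after their values were seen. Exon lengths and coordinates come from GENCODE M21 (mm10) and promoter windows from RefSeq.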

Additional observations from a re-analysis of the deposited data

How the results depend on the processing

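Of 170 values of the 10 granule genes under 17 alternatives, 155 kept their direction and their side of the threshold, 10 lost a call, 3 gained one, and 2 changed sign. The sign changes were those of PTPRN, -0.05 without RD replicate 1 and -0.071 without RD replicate 2, while it was 0.173 without RD replicate 3. Of the 10 genes, 2 were called, and 1 with a replicate block, with an adjusted p threshold of 0.01 or with PAX7 as a covariate, and 0 to 2 with a library left out. With library size only 3 were called, VGF lower and PCSK1N and SCG2 higher. With upper-quartile factors 2 were called, VGF lower and PCSK1N higher. PAM was called in neither of these scalings. Over all genes 1453 were called, 808 with the replicate block, 412 at the threshold of 0.01, and 431 to 1523 with a library left out (431 without HFD replicate 3, 490 without number 2 of HFD, 701 without its number 1, and 890 without RD replicate 2). The replicate numbers did not pair the libraries, with correlations of deviations of -0.13, 0.00 and -0.10 for numbers 1, 2 and 3, and not every library correlated best with its own number. With TMM 56.0% of calls were higher in HFD, and with library size only 72.5%, where the median log2 change of all genes moved by under 0.1, to 0.07. With a library left out, the log2 change of a ratio ranged from 0.34 to 0.70 for PCSK1N to PCSK1, from -0.50 to 0.05 for SCG5 to PCSK2 (-0.17 with all libraries, 0.053 without HFD replicate 2), from -0.25 to 0.05 for CHGB to CHGA (-0.06, with 0.01 without HFD replicate 2, 0.03 without RD replicate 2 and 0.047 without RD replicate 3), from -0.19 to 0.06 for PTPRN to PTPRN2 (-0.09, with 0.064 without RD replicate 3), and from 0.02 to 0.07 for SCG2 to SCG3. The cause of these changes was not tested. The pseudocount settings planned for a normalized table were left out because the values are counts.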

Other observations

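RD replicate 3, the library with the highest VGF and PTPRN, was also the highest for several listed genes outside the 10. Those named here were chosen after their values were seen. The gene named CPM, from the list of peptide trimming and amidation, encodes carboxypeptidase M. It stood at 15.2, 9.24 and 11.4 CPM in HFD and at 15.5, 17.7 and 51.6 CPM in RD replicates 1, 2 and 3. SYT4, a synaptotagmin gene of dense-core vesicles, stood at 346, 271 and 256 CPM in HFD and 294, 285 and 439 CPM in RD. HID1, a gene of granule formation at the trans-Golgi network, stood at 141, 127 and 145 CPM in HFD and 131, 134 and 202 CPM in RD. None of these genes was called (adjusted p = 0.087, 0.44 and 0.50 by edgeR).

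POMC was not called (0.58 ± 0.29, adjusted p = 0.23 by edgeR). PAX7 was taken as a covariate because its 3 highest libraries were those of POMC and PCSK2, so a smaller SE of both in that fit follows from the choice, and its POMC value (0.52 ± 0.06, adjusted p = 0.0030, over a range of 0.0030 to 0.60 in the alternatives) is a description and no evidence of a change. PCSK2 had a change of 0.28 ± 0.08 in that fit and was not called (adjusted p = 0.0581, over a range of 0.0581 to 0.87).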
